A study of Homo sapiens with 2 samples.

Results

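Class I HLA molecules carry peptides from inside the cell to its surface, and 9 genes of this system were followed here: the light chain B2M, the heavy chains HLA-B, HLA-C, HLA-E and HLA-F, the peptide transporter subunits TAP1 and TAP2, the loading factor TAPBP, and the transcriptional coactivator NLRC5. They were taken by symbol from a table of 39720 genes, and all 9 were found. The libraries come from A549, an established human lung adenocarcinoma cell line, infected with lentivirus that carried either a negative control hairpin (shNC, 1 library) or a hairpin against DEPDC1B (shDEPDC1B, 1 library). Both groups received 5 µg/mL polybrene and were harvested on day 2, and the series asks what DEPDC1B does in lung adenocarcinoma. The labels do not say whether more than 1 hairpin or culture lay behind a library or whether infected cells were selected, and no uninfected library was used here.

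In the class I pathway, proteasomes cut cytosolic proteins into peptides and the TAP1 and TAP2 transporter pumps these into the endoplasmic reticulum. Tapasin, the product of TAPBP, holds empty class I molecules beside the transporter, and a heavy chain becomes stable only once it has bound both B2M and a peptide. Class I promoters carry an upstream module of short boxes bound by RFX, CREB and NF-Y factors, to which NLRC5 docks, together with sites for NF-kappaB and interferon regulatory factors. Interferon-gamma is the best known inducer of the whole set in epithelial cells.

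With 1 library per group no test across samples was possible, so every difference below lacks a replicate check and compares 2 libraries. Values in square brackets are exact 95% intervals that cover counting error only. A gene was called higher or lower when its ratio of scaled counts, shDEPDC1B over shNC, was at least 1.5-fold and its interval excluded equality, provided that the larger of its 2 counts was 30 or more. Of the 9 genes 8 met that minimum. The total was 18647290 counts in shNC and 18862371 in shDEPDC1B. DEPDC1B itself had 329 counts in shNC and 38.8 in shDEPDC1B, which is 12.5% [8.75, 17.5] of the control level after scaling.

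The sequences before the transcription starts were searched for short patterns of class I promoters. The box bound by RFX was not among them. RefSeq windows (GRCh38.p14) were at hand for 7 of the 9 genes, HLA-E and NLRC5 having none in the table used. TAP1 has 2 windows, for different starts, which makes 8 windows in all. The 250 bases upstream of the start are printed 5′ to 3′ on the strand of the gene, for the 4 genes that were called higher and for both transporter subunits, which were not. For TAP1 the window at the start farther upstream is shown, and the other (chr6:32852762-32853011) held no match to any of the patterns searched. Capitals mark matches on either strand to CCAAT (the Y box core bound by NF-Y), TGACG (the core bound by CREB and ATF1), a GAAA repeat (GAAA or GAA, any 2 bases, then GAAA, the kind of repeat that interferon regulatory factors bind) and a kappaB pattern (GGG, any 2 bases, TT, any base, CC).
B2M, chr15:44711267-44711516, plus strand: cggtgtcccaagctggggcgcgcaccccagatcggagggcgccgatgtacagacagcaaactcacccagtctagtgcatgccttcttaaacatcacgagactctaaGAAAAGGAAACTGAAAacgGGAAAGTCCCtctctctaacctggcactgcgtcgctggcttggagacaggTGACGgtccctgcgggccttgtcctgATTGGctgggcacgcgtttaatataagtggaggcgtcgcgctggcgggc
HLA-B, chr6:31357180-31357429, minus strand: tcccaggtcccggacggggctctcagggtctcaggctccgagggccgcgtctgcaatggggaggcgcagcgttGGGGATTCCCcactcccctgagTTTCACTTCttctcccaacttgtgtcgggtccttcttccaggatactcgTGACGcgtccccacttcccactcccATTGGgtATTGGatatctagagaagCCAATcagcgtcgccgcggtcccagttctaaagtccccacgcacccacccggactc
HLA-C, chr6:31272093-31272342, minus strand: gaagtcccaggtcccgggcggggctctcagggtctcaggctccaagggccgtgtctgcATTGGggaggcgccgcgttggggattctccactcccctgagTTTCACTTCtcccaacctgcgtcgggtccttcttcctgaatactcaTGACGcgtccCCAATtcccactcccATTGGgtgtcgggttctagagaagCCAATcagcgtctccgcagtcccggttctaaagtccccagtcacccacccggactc
TAPBP, chr6:33314079-33314328, minus strand: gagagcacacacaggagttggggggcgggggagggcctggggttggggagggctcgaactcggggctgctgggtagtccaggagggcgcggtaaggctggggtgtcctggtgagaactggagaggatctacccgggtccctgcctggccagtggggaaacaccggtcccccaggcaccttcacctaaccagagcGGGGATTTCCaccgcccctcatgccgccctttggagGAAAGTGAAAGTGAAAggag
TAP1, chr6:32853705-32853954, minus strand: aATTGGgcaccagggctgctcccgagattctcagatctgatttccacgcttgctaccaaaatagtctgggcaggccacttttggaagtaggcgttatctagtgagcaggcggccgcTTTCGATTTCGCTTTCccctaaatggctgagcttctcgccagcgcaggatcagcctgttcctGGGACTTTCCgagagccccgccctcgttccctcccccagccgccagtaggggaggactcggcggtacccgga
TAP2, chr6:32838740-32838989, minus strand: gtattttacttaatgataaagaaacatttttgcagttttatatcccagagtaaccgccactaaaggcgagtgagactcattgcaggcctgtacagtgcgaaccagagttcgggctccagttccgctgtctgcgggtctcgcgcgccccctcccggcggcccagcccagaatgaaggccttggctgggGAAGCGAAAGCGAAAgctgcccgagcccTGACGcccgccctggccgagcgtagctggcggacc

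B2M, HLA-B and HLA-C held TGACG followed on the same strand by ATTGG, the reverse complement of CCAAT, 15 to 40 bases on. The nearest such ATTGG lay 21 bases after TGACG in B2M and 20 bases after it in HLA-B and in HLA-C. Of 35116 RefSeq windows of the same length 142 (0.404%) held this arrangement, which HLA-F, TAP1, TAP2 and TAPBP did not. Only exact matches were taken, and the HLA-F window, not printed, reads TAACG at the place where HLA-C has TGACG. A window without the arrangement is therefore not shown to lack the module. A GAAA repeat of either form was present in 7 of the 8 windows, the second TAP1 window being without one, against 9.08% of all windows. B2M, TAP1, TAP2 and TAPBP each held a pair of such matches that overlapped. The kappaB pattern was found in B2M, HLA-B, TAP1 and TAPBP (4 of 8 windows, against 5.07% of all windows), and in B2M it lay on the opposite strand. CCAAT was found in 5 of the 8 windows (32.0% of all windows) and TGACG in 4 (21.2%). The HLA-B and HLA-C windows were identical at 89.0% of aligned positions, HLA-B and HLA-F at 80.4%, and HLA-B and B2M at 49.5%. These are letter matches in windows chosen with the pathway in mind and do not show that a site is used in A549.

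B2M, HLA-B, HLA-C and TAPBP were at least 1.5-fold higher in the shDEPDC1B library, and none of the genes was called lower. These 4 of 8 compare with 19.2% of the 13850 assessed genes called higher and 19.6% called lower. After a linear fit on transcript length and GC content, described further on, 1 of the 8 was called higher (TAPBP), against 12.5% of all genes higher and 13.7% lower. With libraries scaled by their totals alone 3 of the 8 were called higher, B2M being under 1.5-fold, against 14.6% higher and 23.2% lower. HLA-B, with 19 and 36 counts, reached the minimum of 30 only in the library where it was high, so its call adds nothing to the count. With the minimum set on the mean of both libraries instead, HLA-B was not assessed, 3 of 7 genes were called higher (18.97% of all genes) and the median log2 ratio was 0.27. HLA-E, TAP1, TAP2 and NLRC5 were between 1.18-fold and 1.21-fold higher with intervals that included equality. The median log2 ratio of the 8 genes was 0.46, beside 0.04 for all assessed genes, whose middle part (25th to 75th percentile) ran from -0.46 to 0.49. All 8 ratios were above 1, as were 51.9% of all assessed genes. Intervals lay wholly above equality for 4 of the 8, against 38.9% of all assessed genes, and excluded it in either direction for 4 of the 8 against 73.8%.

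B2M, on chromosome 15 (44711487 to 44718877, plus strand, GRCh38 coordinates of GENCODE 29), encodes the light chain that all class I heavy chains share. It had 1484 counts in shNC and 2208 in shDEPDC1B. As CPM (counts per 1000000 scaled counts) its level was 77.0 in the control library and 121 in the other. The shDEPDC1B library was the higher one by 1.57-fold [1.47, 1.68], a log2 ratio of 0.65 [0.56, 0.75]. Its ratio was above that of 83.6% of assessed genes. In bulk RNA such as this, a change in the share of cells that express a gene and a change in RNA per cell cannot be told apart.

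HLA-C (chromosome 6, 31268749 to 31272130, minus strand) encodes a classical heavy chain that presents to T cells and is also read by killer cell receptors. It had 259 counts in shNC and 423 in shDEPDC1B, 13.4 and 23.2 CPM, and was 1.73-fold [1.48, 2.02] higher in shDEPDC1B. Its Poisson intervals, 11.8 to 15.2 CPM in shNC and 21.0 to 25.5 CPM in shDEPDC1B, did not overlap. HLA-B, the other classical chain followed (chromosome 6, 31269491 to 31357188, minus strand, an annotated span that overlaps that of HLA-C in part), was listed at 19.1 counts in shNC and 36.2 in shDEPDC1B. Its ratio of 2.00-fold [1.12, 3.70] was the farthest from equality of the 8 and the least precise, and its intervals of 0.593 to 1.54 and 1.38 to 2.73 CPM overlapped.

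HLA-E (chromosome 6, 30489467 to 30494205, plus strand) encodes a nonclassical chain that displays leader peptides of other class I chains to NKG2A receptors. It had 182 and 208 counts, 9.44 CPM in shNC and 11.4 CPM in shDEPDC1B, a ratio of 1.21-fold [0.985, 1.48]. HLA-F (chromosome 6, 29722775 to 29738528, plus strand), a nonclassical chain found largely inside cells, was listed at 9.92 counts in shNC and 12 in shDEPDC1B. Its interval ran from 0.502-fold to 3.28-fold, so at this depth no difference in HLA-F could be seen. Relative to HLA-E, HLA-C was 1.43 times [1.10, 1.85] higher in shDEPDC1B, and HLA-B and HLA-C summed were 1.44 times [1.12, 1.87] higher. Of the summed counts of the 4 heavy chains, HLA-E made up 38.7% [34.3, 43.3] in shNC and 30.6% [27.2, 34.3] in shDEPDC1B. HLA-C made up 55.1% [50.5, 59.7] and 62.3% [58.5, 66.0]. These shares are of deposited counts, without regard to transcript length or copies. Per kilobase with the copies multiplied in, as described further on, HLA-E made up 27.7% in shNC and 21.1% in shDEPDC1B. HLA-C made up 65.8% and 71.7% on that scale.

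TAP1 (chromosome 6, 32845209 to 32853978, minus strand) and TAP2 (32821833 to 32838780, minus strand) encode the subunits of the peptide transporter. TAP1 had 187 counts in shNC and 212 in shDEPDC1B (9.70 and 11.6 CPM), and TAP2 had 88 and 98 (4.56 and 5.37 CPM). The ratios were 1.20-fold [0.980, 1.47] for TAP1 and 1.18-fold [0.874, 1.59] for TAP2, and in each gene the 2 libraries overlapped in their Poisson intervals. The TAP1 to TAP2 ratio moved by a factor of 1.02 [0.707, 1.46] between the libraries. TAPBP (33299694 to 33314387, minus strand), whose product tapasin bridges transporter and heavy chain, had 426 counts in shNC and 653 in the knockdown library. Its level was 22.1 CPM against 35.8 CPM. It was 1.62-fold [1.43, 1.83] higher in shDEPDC1B, and its ratio to the 2 transporter genes summed was 1.36 times [1.10, 1.67] that in shNC.

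NLRC5 (chromosome 16, 56989485 to 57083531, plus strand), the coactivator that drives class I transcription, had 64 counts in shNC and 72 in shDEPDC1B. At 3.32 and 3.95 CPM its ratio was 1.19-fold [0.837, 1.69], and a difference of that size is within the counting error.

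**Figure D1:**
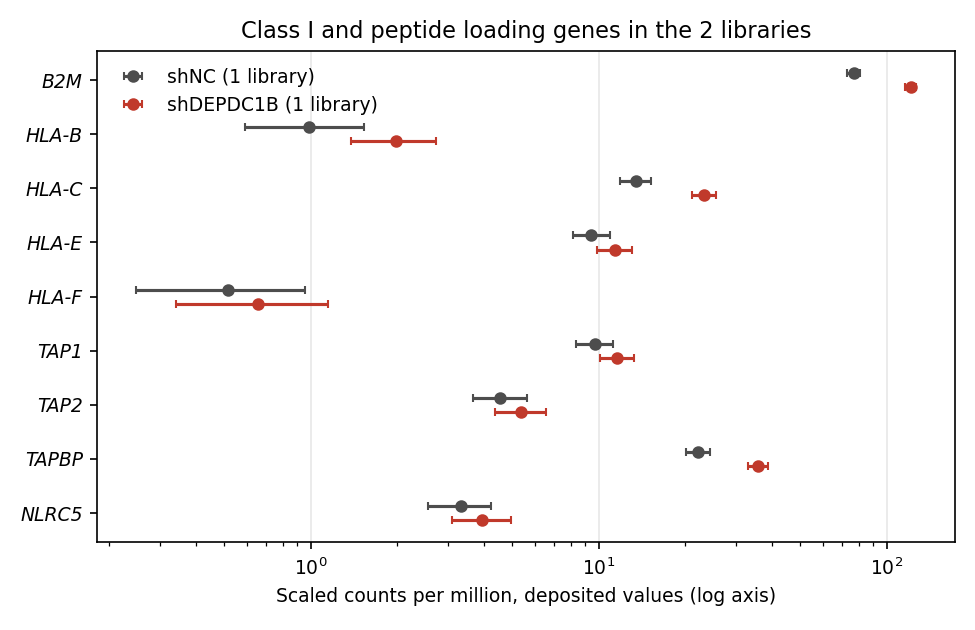
CPM on scaled counts (log axis) of each gene in the shNC and shDEPDC1B libraries, 1 library each, with exact 95% Poisson intervals as bars. The bars of B2M, HLA-C and TAPBP do not overlap between the libraries, whereas those of the other 6 genes do.

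Differences among the genes were set against each other within the libraries, which does not depend on how the libraries are scaled. Of 28 pairs among the 8 genes, 7 had a ratio that differed between the libraries beyond counting error. The share of such pairs among all assessed genes was not computed, so 7 of 28 cannot be read as a trait of these genes. For single genes, 73.8% of all assessed genes had an interval that excluded equality. B2M, HLA-C and TAPBP each stood above HLA-E and above TAP1, and HLA-C also stood above TAP2. These comparisons do depend on transcript length and GC content: after the fit on both, HLA-C (log2 ratio 0.26) lay below TAP2 (0.47), and its distance from HLA-E (0.07) shrank. B2M kept pace with the 4 heavy chains summed: the ratio of their deposited counts was 3.16 in shNC and 3.25 in shDEPDC1B, a factor of 1.03 [0.898, 1.18]. The deposited counts do not compare levels of different genes. Per kilobase with the copies multiplied in, as described further on, the ratio was 0.983 in shNC and 0.974 in shDEPDC1B. That ratio rests on the smallest multiplier being the number of copies. Class I rows of the table that were not followed, 1 of them called higher, are left out of the sum, so no balance of light and heavy chains can be read from it.

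**Figure D2:**
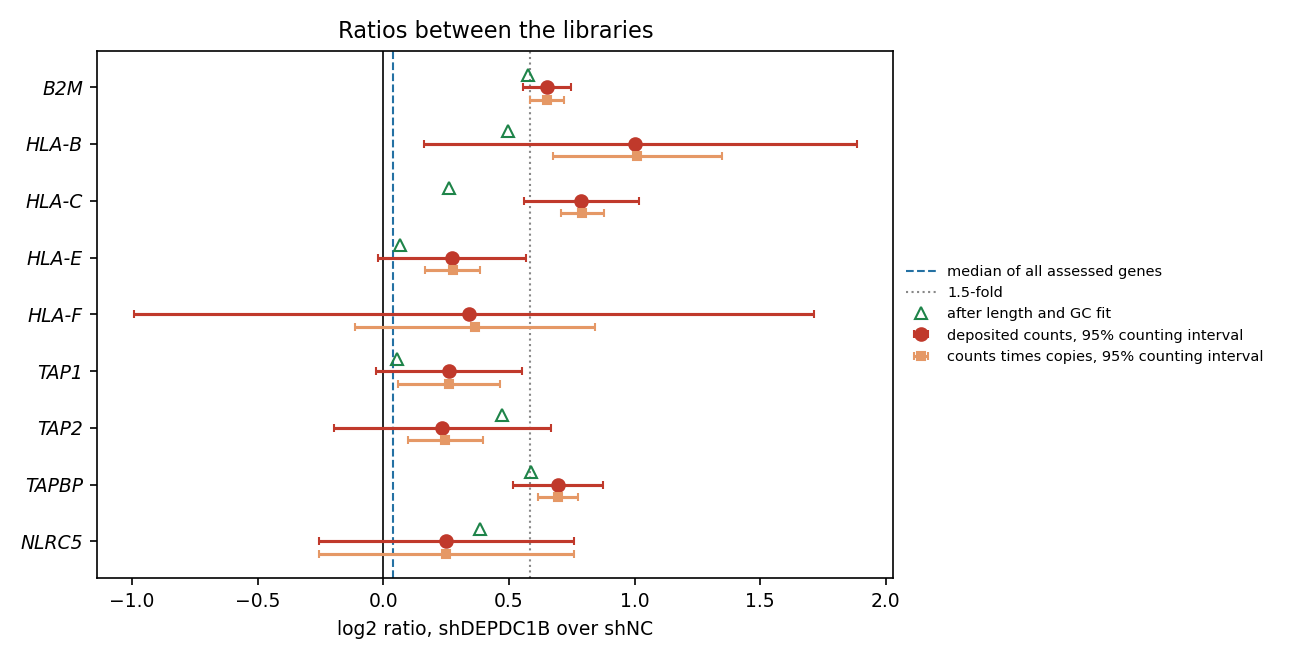
Log2 ratio of each gene, shDEPDC1B over shNC, with its 95% counting interval (circles), the same with deposited values multiplied by their number of copies (squares), and the ratio after the fit on transcript length and GC content (triangles, none for HLA-F). B2M, HLA-B, HLA-C and TAPBP lie to the right of the 1.5-fold line as circles, and the triangle of HLA-C lies at 0.26.

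The deposited values of 8 of the 9 genes have the form of means over gene copies, NLRC5 being the exception. The test was the smallest whole number up to 12 that turns both libraries' values into whole hundredths (tolerance 0.001 hundredths). That number was 2 for B2M and TAP1, 5 for TAPBP, 6 for HLA-B, 7 for HLA-C, HLA-E and HLA-F, and 8 for TAP2. Among the 93 assessed genes of the MHC region (chromosome 6, 28 to 34 Mb) 67 (72.0%) needed a multiplier above 1, against 2.16% of the 13757 other assessed genes. The GRCh38 assembly carries alternate haplotypes of this region, and the labels do not say whether means were taken over them. Since the test finds the smallest multiplier, the true number of copies can be a multiple of it.

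**Figure D3:**
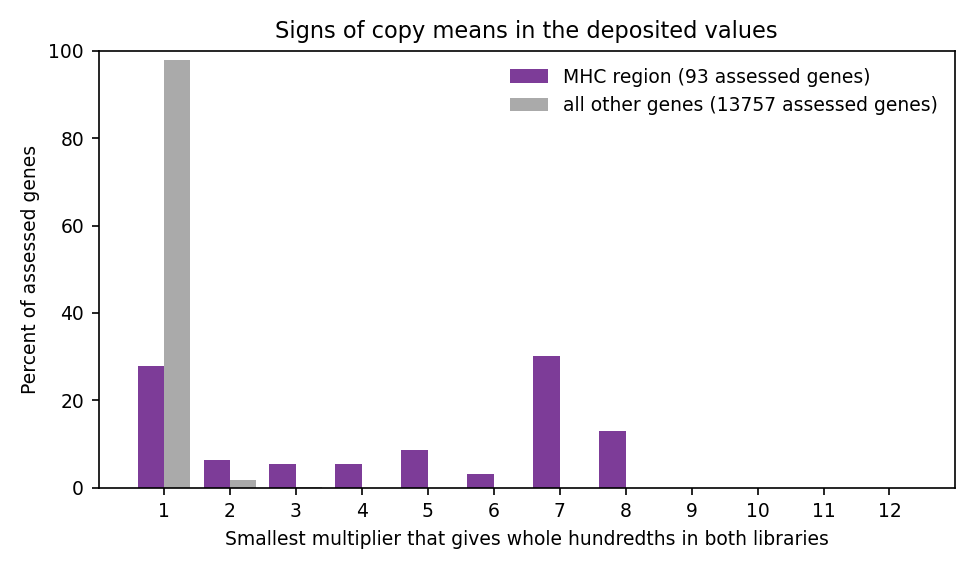
Percent of assessed genes (vertical axis) by the smallest multiplier that gives whole hundredths in both libraries (horizontal axis), for the MHC region and for all other genes. Multiplier 7 is the commonest in the MHC region (30.1% of 93 genes), while 97.8% of the other genes need none.

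If each value is a mean, the reads behind it are the value times the number of copies. The ratios stay nearly the same and the intervals narrow. B2M would then rest on 2968 and 4416 counts, HLA-C on 1810 and 2964, HLA-E on 1273 and 1459, and HLA-B on 114 and 217. On these counts the intervals of 7 genes excluded equality (74.1% of all genes assessed in this way), among them HLA-E at a log2 ratio of 0.28 [0.17, 0.39], TAP1 at 0.26 [0.06, 0.47] and TAP2 at 0.25 [0.10, 0.40]. HLA-F and NLRC5 still included equality, and the genes past 1.5-fold were the same 4.

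Levels of different genes were compared per kilobase of the longest coding transcript in GENCODE 29, with the copies multiplied in. In shNC the order was B2M at 90.3 CPM per kilobase, HLA-C at 60.4, TAPBP at 29.4, HLA-E at 25.4, TAP1 at 6.54, TAP2 at 6.41, HLA-B at 3.83, HLA-F at 2.20 and NLRC5 at 0.487. Neighbours whose counting intervals overlapped in shNC were TAPBP and HLA-E, TAP1 and TAP2, TAP2 and HLA-B, and HLA-B and HLA-F. In shDEPDC1B the values were 142 for B2M, 105 for HLA-C, 47.6 for TAPBP, 30.8 for HLA-E, 7.84 for TAP1, 7.69 for HLA-B, 7.60 for TAP2, 2.82 for HLA-F and 0.579 for NLRC5. There TAPBP and HLA-E no longer overlapped, and TAP1, HLA-B and TAP2 did. This order rests on the smallest multiplier being the number of copies: with the 8 of its neighbour TAP2, TAP1 would be at 26.2 in shNC and 31.4 in shDEPDC1B, beside HLA-E. On this scale the level of HLA-B was 0.0635 times that of HLA-C in shNC and 0.0736 times in shDEPDC1B. The heavy chain sequences differ between people, and reads from alleles far from the reference can be lost or moved to a related gene, a loss that was not measured.

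Shared sequence also bears on these counts. Of all 100-base windows in the longest coding transcript, none in B2M, HLA-B, HLA-F, TAP1, TAPBP or NLRC5 also occurred in a transcript of another gene. The share was 0.275% in HLA-C, 0.60% in HLA-E and 35.2% in TAP2, all of the latter with 1 other annotated gene. For windows of 50 bases it was 6.71% in HLA-C, 5.13% in HLA-E, 2.54% in HLA-B, 1.70% in HLA-F, 35.8% in TAP2, 1.07% in TAP1 and 6.09% in TAPBP, whose shared windows occurred in 380 other genes. The annotated span of PSMB9 (32844136 to 32859585, plus strand) takes in all of TAP1, and without a statement on strand reads from the overlap cannot be told apart. Another 6 class I rows of the table were not followed here, of which 1 reached 30 counts and was called higher.

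Across all genes the log2 ratio fell with transcript length and rose with the GC share of the transcript, and these features together took up 24.6% of its variance in a linear model. The fit assigned 0.51 of the log2 ratio to these features in HLA-B and 0.53 in HLA-C, whose transcripts have 1547 and 1554 nucleotides, but 0.08 in B2M and 0.11 in TAPBP. With that part subtracted the log2 ratios were 0.59 for TAPBP, 0.57 for B2M, 0.50 for HLA-B, 0.47 for TAP2, 0.38 for NLRC5, 0.26 for HLA-C, 0.07 for HLA-E and 0.06 for TAP1. Shifted by the same part, the counting intervals of HLA-B, HLA-E, TAP1 and NLRC5 included equality. Those of B2M, TAPBP, TAP2 and, only just, HLA-C lay above it, and the share of all genes that did so was not computed. TAPBP alone then passed 1.5-fold (1 of 8, the count given above), B2M was just under it, and the median of the 8 was 0.43 beside 0.03 for all genes. TAP2 and NLRC5, with 5684 and 6822 nucleotides, moved up under the fit while the short heavy chain transcripts moved down. Whether length and GC act through library preparation was not tested.

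**Figure D4:**
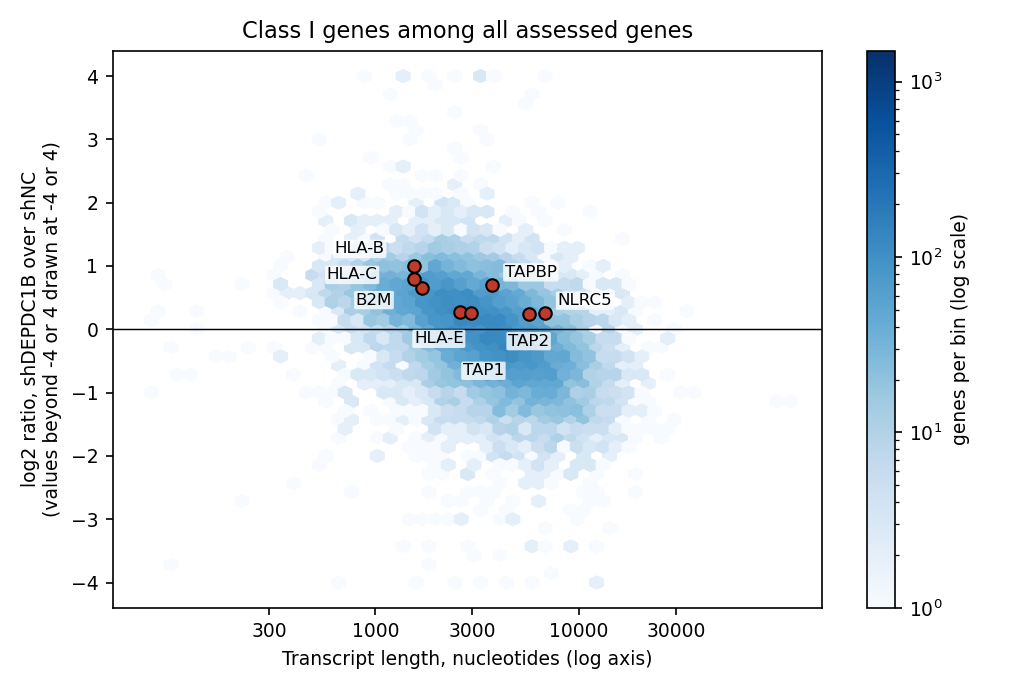
Log2 ratio, shDEPDC1B over shNC, against transcript length in nucleotides (log axis) for all assessed genes with a length (shading, genes per bin, with ratios beyond -4 or 4 drawn at those values) and for the 8 assessed class I genes (red points). HLA-B and HLA-C are among the shorter transcripts, and NLRC5 is the longest of the 8.

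Among 87 other assessed genes between 28 and 34 Mb of chromosome 6, around the class I loci, 26 were called higher and 4 lower, beside 19.2% and 19.6% of all assessed genes. Their median log2 ratio was 0.49, and 61 of the 87 ratios were above 1. After the length and GC fit the median of these 87 was 0.15. The 87 include MICA, MICB, PSMB8 and PSMB9, which also belong to lists described below. The 6 assessed class I genes within this region are HLA-B, HLA-C, HLA-E, TAP1, TAP2 and TAPBP. B2M and NLRC5, which lie elsewhere, were at 0.65 [0.56, 0.75] and 0.25 [-0.26, 0.76], and the midpoint of these 2 genes was 0.45.

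Counts in the lists that follow are to be read against the 19.2% of all assessed genes called higher and 19.6% called lower, or 12.5% and 13.7% after the length and GC fit. The steps that make peptides showed mixed ratios. Of 11 proteasome genes 3 were higher and 1 lower, and their median of 0.54 became 0.02 once length and GC were fitted, when none of them was called. PSMB10, an interferon-inducible catalytic subunit, had 228 counts in shNC and 434 in shDEPDC1B, 2.01-fold higher. PSME2 and PSME1, which form the PA28 cap, were 1.78-fold and 1.53-fold higher, and PSME4, a nuclear proteasome activator, was 1.98-fold lower. PSMB8 and PSMB9, the inducible subunits encoded beside TAP1 and TAP2, were listed at 29.7 and 39.4 counts and at 24.6 and 37.0 counts, and the intervals of both included equality. Against its constitutive counterpart PSMB7, PSMB10 was 1.39 times [1.17, 1.65] higher in shDEPDC1B. The same comparison gave 1.03 [0.622, 1.72] for PSMB8 over PSMB5 and 1.07 [0.624, 1.86] for PSMB9 over PSMB6. Of 8 cytosolic peptidases, which trim or destroy peptides before transport, 1 was higher and 3 were lower. After the length and GC fit none was called lower and the list median went from -0.29 to -0.08. THOP1 was 1.81-fold higher, TPP2 was 1.69-fold lower, IDE was 1.66-fold lower and NLN had a log2 ratio of -0.59 [-0.67, -0.50].

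Of 12 genes listed for loading and trimming in the endoplasmic reticulum, 4 were higher and 1 was lower, with a median of 0.24. P4HB, a protein disulfide isomerase, was 1.65-fold higher, and GANAB, a glucosidase subunit that trims new glycoproteins, was 1.55-fold higher. CALR, the calreticulin chaperone of the loading complex, was 1.51-fold higher. The fourth, named after its values were seen, was TAPBPL, a tapasin relative that edits peptides, with 71.2 and 111 counts. The gene called lower, LNPEP, is an aminopeptidase of endosomal cross-presentation rather than of the endoplasmic reticulum. LNPEP has a transcript of 12752 nucleotides and was 5.05-fold lower. PDIA3, the partner of tapasin, was at 0.24 [0.20, 0.29] on the log2 scale, and the trimming enzymes ERAP1 and ERAP2 were at 0.17 [-0.02, 0.35] and -0.16 [-0.59, 0.26]. After the length and GC fit 1 of the 12 was called higher and 1 lower.

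Among 16 factors of class I promoters 5 were higher and 1 lower, with a median of 0.32 (0.30 after the length and GC fit, when 4 were called higher and none lower). RFX5, the DNA-binding subunit of the RFX complex that reads the X box, had 1739 counts in shNC and 3401 in shDEPDC1B. It was 2.07-fold higher, a log2 ratio of 1.05 [0.96, 1.13] and of 1.08 after the fit. Its partner RFXANK was 1.78-fold higher, but its log2 ratio of 0.84 became 0.25 with length and GC fitted and was no longer past 1.5-fold. RFXAP, the other partner, at 42 and 53 counts, had an interval that included equality (0.42 [-0.20, 1.04]). NFKB2 and RELB, which form the noncanonical NF-kappaB dimer, were 2.59-fold and 2.54-fold higher. The subunits of NF-Y went apart, with NFYA at -0.05 [-0.23, 0.13], NFYB at -0.27 [-0.43, -0.12] and NFYC at 0.58 [0.43, 0.73]. CREB1 was at -0.52 [-0.66, -0.37], ATF1 at 0.22 [0.04, 0.40] and IRF1 at 0.17 [-0.01, 0.36], none of them past 1.5-fold. The remaining called genes, named after their values were seen, were IRF2, 1.75-fold higher, and the class II coactivator CIITA, with 38 and 16 counts, 2.25-fold lower. CIITA reached 30 counts only in the library where it was high. With the minimum set on the mean of both libraries, 5 factors were called higher and 0 lower (18.97% and 19.02% of all genes).

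Interferon genes were followed in a pair of lists: receptors and JAK-STAT genes, and interferon-gamma response genes. The former also holds IFNAR1, IFNAR2 and TYK2, so it is not limited to interferon-gamma. Of 13 receptor and JAK-STAT genes 2 were higher and 1 lower, with a median of 0.06. With length and GC fitted their median was 0.21, and 1 was higher and 0 lower. TYK2 was 2.16-fold higher, the receptor chain IFNGR2 was 1.63-fold higher (its values look like copy means too), and JAK2, the kinase of the interferon-gamma receptor, was 1.69-fold lower. Of 10 assessed interferon-gamma response genes 2 were higher and 1 was lower. Their median was -0.25, and 3 of the 10 ratios were above 1. With length and GC fitted the median was -0.03, 1 gene was higher and 2 were lower. IFI30, a lysosomal thiol reductase, was 2.52-fold higher, IFI35 was 1.92-fold higher and the GTPase GBP3 was 1.53-fold lower. CXCL9 and CXCL11, chemokines that interferon-gamma induces, had 0 counts in both libraries, and CXCL10 had 0 and 1. A floor of 3 counts per library is the limit that a count of 0 allows. The position of these lists relative to the class I genes was not tested.

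Of 6 assessed class I-like genes 3 were higher and 0 lower, and the list median was 0.61. After the length and GC fit 2 were higher and 0 lower, and the median was 0.43. MICA and PROCR, at 0.50 and 0.36, were then under 1.5-fold, whereas HFE, at 0.75, was past it. MICB, a stress ligand of the NKG2D receptor that binds no B2M, was listed at 23.4 counts in shNC and 86.5 in shDEPDC1B, a log2 ratio of 2.00 [1.32, 2.73]. It reached 30 counts only in the library where it was high, and with a minimum of 100 counts the list had 2 genes called higher. Its relative MICA was 1.71-fold higher, and the values of both look like copy means. PROCR, the endothelial protein C receptor, was 1.73-fold higher. HFE and FCGRT, which do pair with B2M, were at 0.43 [0.27, 0.58] and 0.45 [0.25, 0.65], and MR1, which presents vitamin B metabolites, at -0.32 [-0.48, -0.17]. Of 15 genes of class I turnover and trafficking 4 were higher and 1 lower, and the list median was 0.17. After the length and GC fit 2 were higher and 0 lower, the median was -0.02, and TRAPPC1, BCAP31 and SEL1L, at 0.06, 0.19 and -0.47, were no longer called. HM13, the signal peptide peptidase that frees the leader peptides shown by HLA-E, was 1.65-fold higher, TRAPPC1 was 1.76-fold higher and the export receptor BCAP31 was 1.55-fold higher. SEL1L, an adaptor of endoplasmic reticulum degradation, was 2.06-fold lower, and the fourth higher gene, DERL1, was 1.51-fold higher (named after its value was seen). None of 11 class II genes reached 30 counts, the highest value among them being 16.

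**Figure D5:**
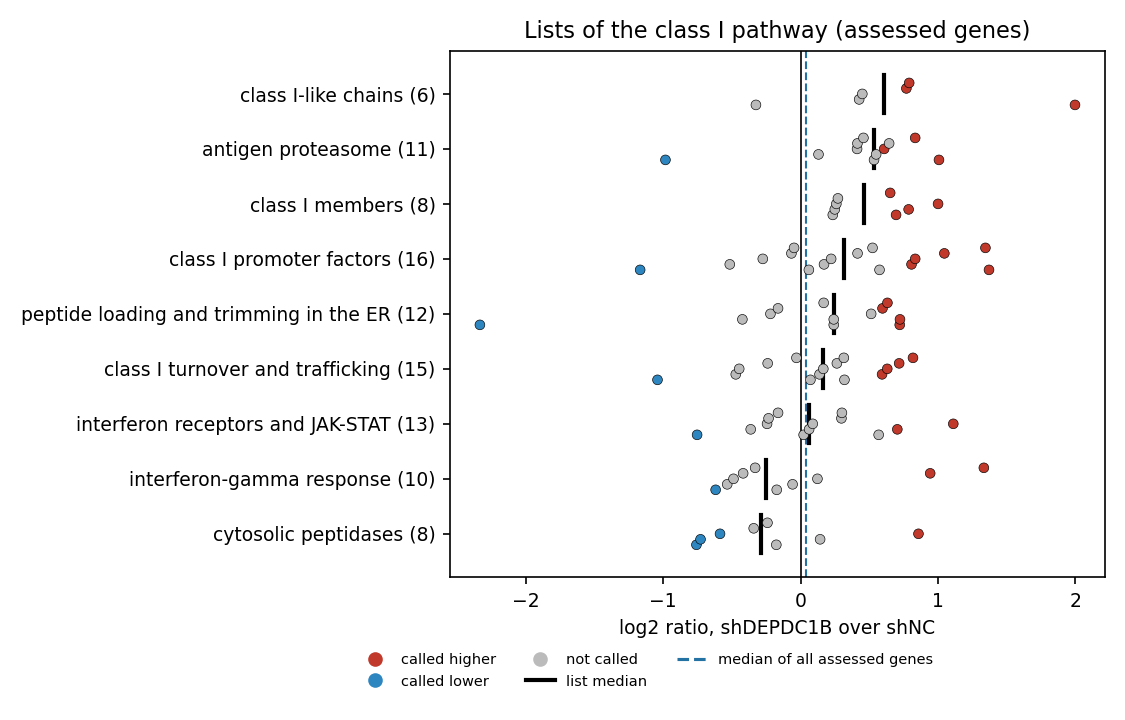
Log2 ratios, shDEPDC1B over shNC, of the assessed genes in each list (points, red where called higher and blue where called lower, number of genes in brackets), with the list median (black bar) and the median of all assessed genes (dashed line at 0.04). Class I-like chains have the highest median (0.61) and cytosolic peptidases the lowest (-0.29).

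Markers of other cell types were partly silent and partly expressed. Of 13 leukocyte markers 6 were at 0 in both, among them the T cell markers CD2, CD3D and CD3E, and PTPRC had 0 counts in shNC and 2 in shDEPDC1B. CD68 had 690 counts in shNC and 495 in shDEPDC1B, ITGAM had 154 and 203, and CD14, with 107 and 175, was called higher. Summed, the leukocyte markers were at 50.0 CPM in shNC and 48.8 CPM in shDEPDC1B. The 6 fibroblast markers summed to 10.0 and 12.1 CPM, mostly from COL1A1 (99 and 105 counts) and COL3A1 (80 and 105), and the 4 endothelial markers to 0.674 and 0.548 CPM. The 9 lung epithelial and A549 markers were all assessed and summed to 20676 and 25080 CPM, and EPCAM and AKR1C1 were called higher. The part of these marker differences in the class I values was not tested.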

How the data were processed

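RNA was sequenced from 1 shNC and 1 shDEPDC1B library of A549 cells, grouped by the treatment label. The values the authors deposited are estimated counts, 1 row per symbol, made with Bowtie2 and RSEM on hg38 per the submitters' processing notes. The labels state no version, annotation or strand. The counts were rounded to whole numbers and scaled with TMM factors (1.03 for shNC, 0.967 for shDEPDC1B) from edgeR 4.0.16 in R 4.3.3. Ratios carry the Clopper-Pearson 95% interval of the share of counts in shDEPDC1B, levels a Poisson interval, and changes of a ratio between genes a conditional exact interval. No molecular identifiers are stated, so intervals cover counting error only. Lengths, GC content and coordinates are from GENCODE 29, which gave them for 94.0% of assessed genes. The steps were tested on simulated data. Named genes are the 9 genes of the title group, DEPDC1B, up to 4 called genes per list by the interval bound farthest from equality, and 9 factors of the promoter module. The genes, lists and alternatives were chosen with earlier results of these data known. Alternatives covered 3 other scalings including DESeq2 1.42.0 size factors, the length and GC fit, a loess on expression, a prior count of 2, other filters and thresholds, and copies multiplied in. Values of a few listed genes are not reported here.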

Additional observations from a re-analysis of the deposited data

How the results depend on the processing

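All 61 recomputed log2 ratios of the 9 genes stayed above 0. They come from the same 2 libraries, and a prior count or copies multiplied in cannot reverse the order of a gene's 2 counts. The main intervals of HLA-E, HLA-F, TAP1, TAP2 and NLRC5 included equality. The number of genes called higher was 4 of 8, and 1 after the length and GC fit (TAPBP). It was 1 at a 2-fold threshold (HLA-B, at 2.00-fold) and 3 with library totals, where B2M was at 0.56 on the log2 scale. HLA-B reached the minimum count only in the library where it was high. Its call therefore adds nothing to the 4, to the 3 with library totals or to the 1 at 2-fold. With HLA-B left out, none of the genes passed the 2-fold threshold. With length and GC fitted, HLA-C was at 0.26. Of 91 assessed genes in all other lists, 24 were called higher and 9 lower (19.2% and 19.6% of all genes). These numbers were 12 and 3 after the length and GC fit (12.5% and 13.7%), 7 and 3 at 2-fold (5.86% and 8.97%), and 34 and 20 at the lowest fold threshold tried (31.5% and 28.8%). With the minimum on the mean of both libraries the numbers were 24 and 8 (18.97% and 19.02%). Of the 176 recomputed list counts, 42 moved by more than 1.5 times, or to or from 0. Changes of the fold threshold, which alter such counts by design, are among them. The median of the 8 genes lay between 0.27 (without HLA-B, the gene farthest from the median, which a minimum on the mean of both libraries, chosen after seeing the data, also leaves out) and 0.65 (100 counts or more, 5 genes). Library totals put 14.6% of all genes higher and 23.2% lower, against 19.2% and 19.6% with TMM. No paired analysis was possible because each group has 1 library. Depth limits HLA-F, HLA-B and NLRC5 most.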
